A study of Mus musculus with 82 samples.

Results

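Hematopoietic stem cells (HSCs) of old mice were compared with those of young mice by mRNA-seq across all genes, with the genes read by pathway and family. The comparison used 12 of the 82 samples of the study, chosen as every mRNA-seq library labelled young or old HSC: 4 of young HSCs (YHSCs) and 8 of old HSCs (OHSCs). All came from untreated male C57BL/6J mice, aged 3 to 4 months when young and 24 to 26 months when old, and the labels name no transgene or deletion. HSCs were sorted from bone marrow as living cells without lineage markers that carried Sca-1, c-Kit and CD150 and lacked CD34 and Flk2. Per the methods, each young sample pooled several mice and each old sample was 1 mouse, so the young libraries average over animals while the old ones do not. The p-values below measure the spread between these samples.

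HSCs sit at the top of blood formation, divide rarely, and keep a pool of themselves while feeding the lymphoid, myeloid, erythroid and megakaryocytic branches. In mice, the HSC pool grows with age while its output per cell falls and shifts from lymphoid towards myeloid and platelet cells. Lineage choice is prepared in HSCs by low expression of lineage genes, and the niche reaches the cells through cytokine, TGF-beta and BMP, Wnt, chemokine and adhesion receptors.

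The libraries held 20475764 to 24122404 reads on genes in YHSCs and 22175623 to 24654742 in OHSCs, and levels are given as CPM (counts scaled to a common library size) after TMM scaling. Pearson's r of log2 levels across genes, which are not replicates, was 0.977 to 0.989 within an age and 0.965 to 0.981 between ages, and the first principal component held 33.7% of the variance. Young replicate 2 and old replicate 4 had the most genes with a read (42062 and 42539) and old replicate 6 the fewest (32867). Defining HSC transcripts were abundant at both ages: Mecom, an HSC transcription factor, had 338, 327, 359 and 348 CPM in YHSCs and 288 to 372 CPM (median 328) in OHSCs.

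Transcripts of cells that the sort should have removed were present and were uneven between libraries. Summed B cell markers reached 1037 CPM in young replicate 4 against 136, 146 and 281 in the other young libraries and 44.3 to 278 in OHSCs, and plasma cell markers reached 254 CPM in that library. Neutrophil markers stood at 185 CPM in young replicate 3, 104 in young replicate 4 and 95.6 in old replicate 2, and at 3.395 to 11.2 in the rest. Macrophage markers stood at 131 CPM in old replicate 3 against 27.1 to 58.9 elsewhere. The plasma cell gene Mzb1 and the T cell genes Cd3e and Cd3d had too few reads to be tested. A lower transcript level in such bulk samples can come from fewer cells of a type or from less RNA per cell, and these cannot be told apart.

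**Figure D1:**
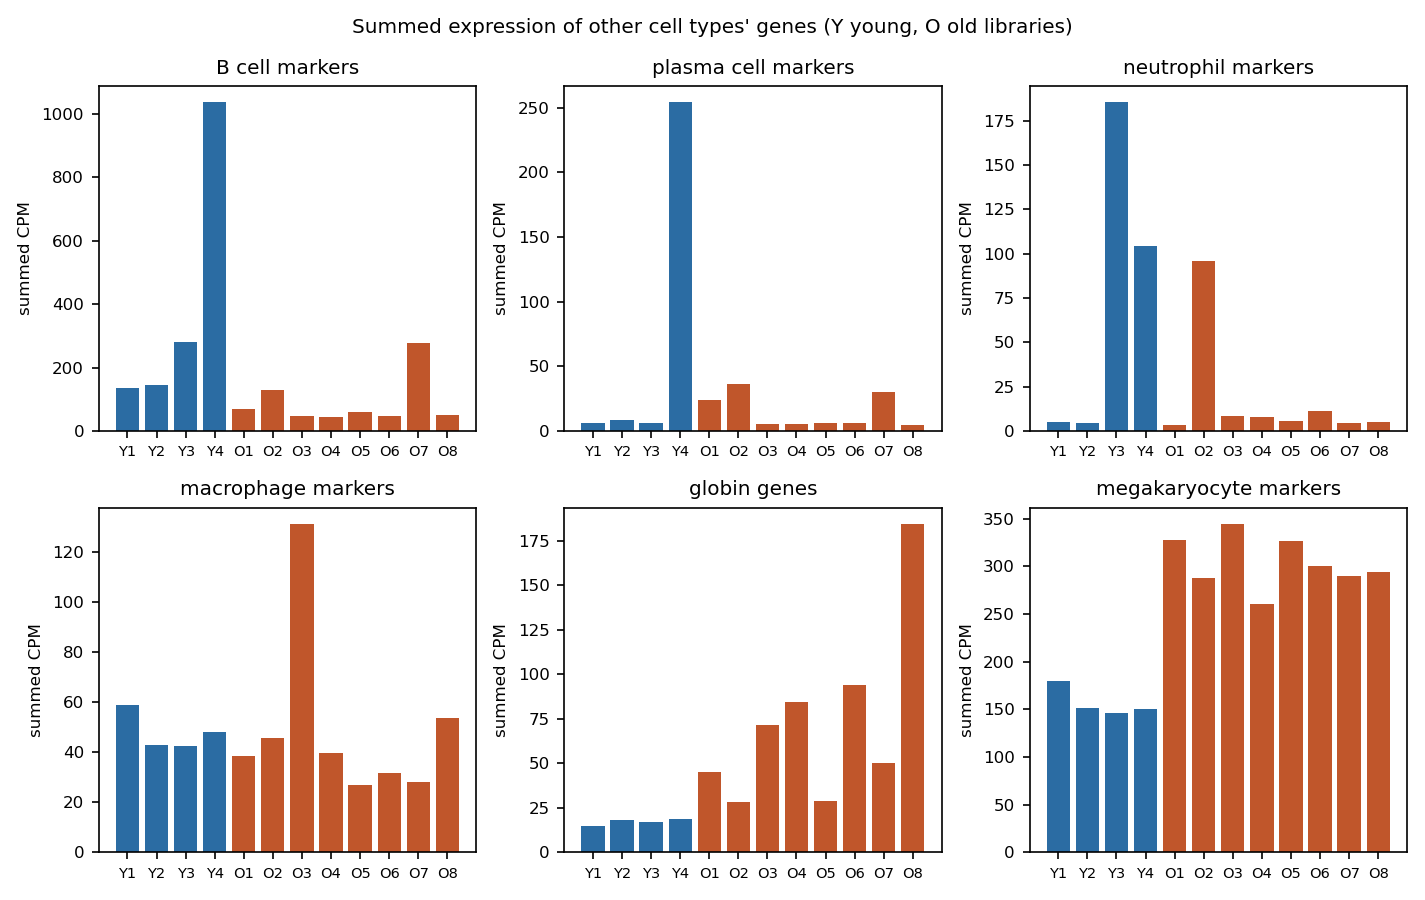
Summed CPM of marker genes of other cell types in each of the 4 young (Y1 to Y4) and 8 old (O1 to O8) libraries, 1 bar per library. B and plasma cell markers peak in Y4, neutrophil markers in Y3, Y4 and O2, macrophage markers in O3 and globin genes in O8, while the megakaryocyte sum, most of it Itga2b, is higher in every old library than in every young one.

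Of 21522 genes tested, 1010 were called higher in OHSCs (4.69% of genes tested) and 608 lower (2.83%), where a gene was called if it changed by over 1.5 times with adjusted p under 0.05 from edgeR's quasi-likelihood test. On the adjusted p alone, 2569 genes were higher (11.9%) and 1865 lower (8.67%), so most shifts past the test were smaller than 1.5-fold. The median log2 fold change was 1.06 among genes called higher, -1.05 among genes called lower and -0.01 over all genes. In 824 of the genes called higher and 461 of those called lower, no old library overlapped a young one. Over all genes tested, 1791 had every old library above every young one (8.32%) and 1192 every old library below (5.54%).

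Several of the largest rises, not all of which are reported here, were in genes with low levels in YHSCs. Sbspon, which encodes a secreted protein with somatomedin B and thrombospondin domains, had 2.304, 3.51, 3.04 and 2.85 CPM in YHSCs and 64.3 to 105 CPM (median 86.5) in OHSCs (log2 fold change 4.89 ± 0.19, adjusted p = 9.56e-10). Tdrd9, a helicase of the germline piRNA pathway, had 2.35, 2.29, 2.04 and 1.81 CPM in YHSCs and 44.5 to 67.9 CPM (median 55.8) in OHSCs (log2 fold change 4.72 ± 0.14, adjusted p = 2.48e-14). For both genes every old library lay far above every young library. Tmem215, which encodes a membrane protein, rose by a log2 fold change of 4.59 ± 0.41 and Rassf10, a Ras association domain gene, by 4.49 ± 0.35, and the neighbour of Sbspon, Gm37509, rose by 4.89 ± 0.17. The largest falls were of immunoglobulin segments and B cell genes, of which Cd79a is given with the lymphoid genes. Falls larger than that of Cd79a are not reported here.

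HSC regulators were called at about the share of all genes, and most genes of earlier HSC aging profiles were called higher. Among HSC regulators, 2 of 43 tested members were called higher and 2 lower, with a median log2 fold change of 0.12, and on the adjusted p alone 14 higher and 9 lower. Mecom stood at -0.05 ± 0.05 and Hlf, another HSC transcription factor, at -0.09 ± 0.04, neither past the test, though Hlf had an adjusted p of 0.0421 with the number of genes detected as a covariate and 0.0395 without the libraries with the most or fewest genes detected. Slamf1, which encodes the CD150 that the sort selected for, rose by 0.84 ± 0.06 (adjusted p = 1.7e-09). Cd48, carried by more mature progenitors, fell from 3.35, 3.04, 4.396 and 6.02 CPM in YHSCs to between 0.0901 and 1.5 CPM (median 0.662) in OHSCs (log2 fold change -2.54 ± 0.39, adjusted p = 0.000132). Flt3, which encodes the Flk2 that the sort selects against, fell by 0.90 on the log2 scale (SE 0.10, adjusted p = 9e-07).

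Of genes reported elsewhere as raised in aged HSCs, 40 of 45 tested members were called higher and 0 lower, with a median of 1.42. This list was written with results of these libraries known and is not independent evidence of its direction. Gpr183, a receptor for oxysterols that guides cell migration, had 7.04, 7.9, 10.02 and 9.32 CPM in YHSCs and 92.4 to 144 CPM (median 138) in OHSCs (log2 fold change 3.89 ± 0.19, adjusted p = 3.38e-08). Clu, the secreted chaperone clusterin, had 48.3, 40.7, 55.8 and 59.7 CPM in YHSCs and 219 to 315 CPM (median 252) in OHSCs (log2 fold change 2.35 ± 0.13, adjusted p = 8.92e-08). Neither gene showed overlap between the ages.

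**Figure D2:**
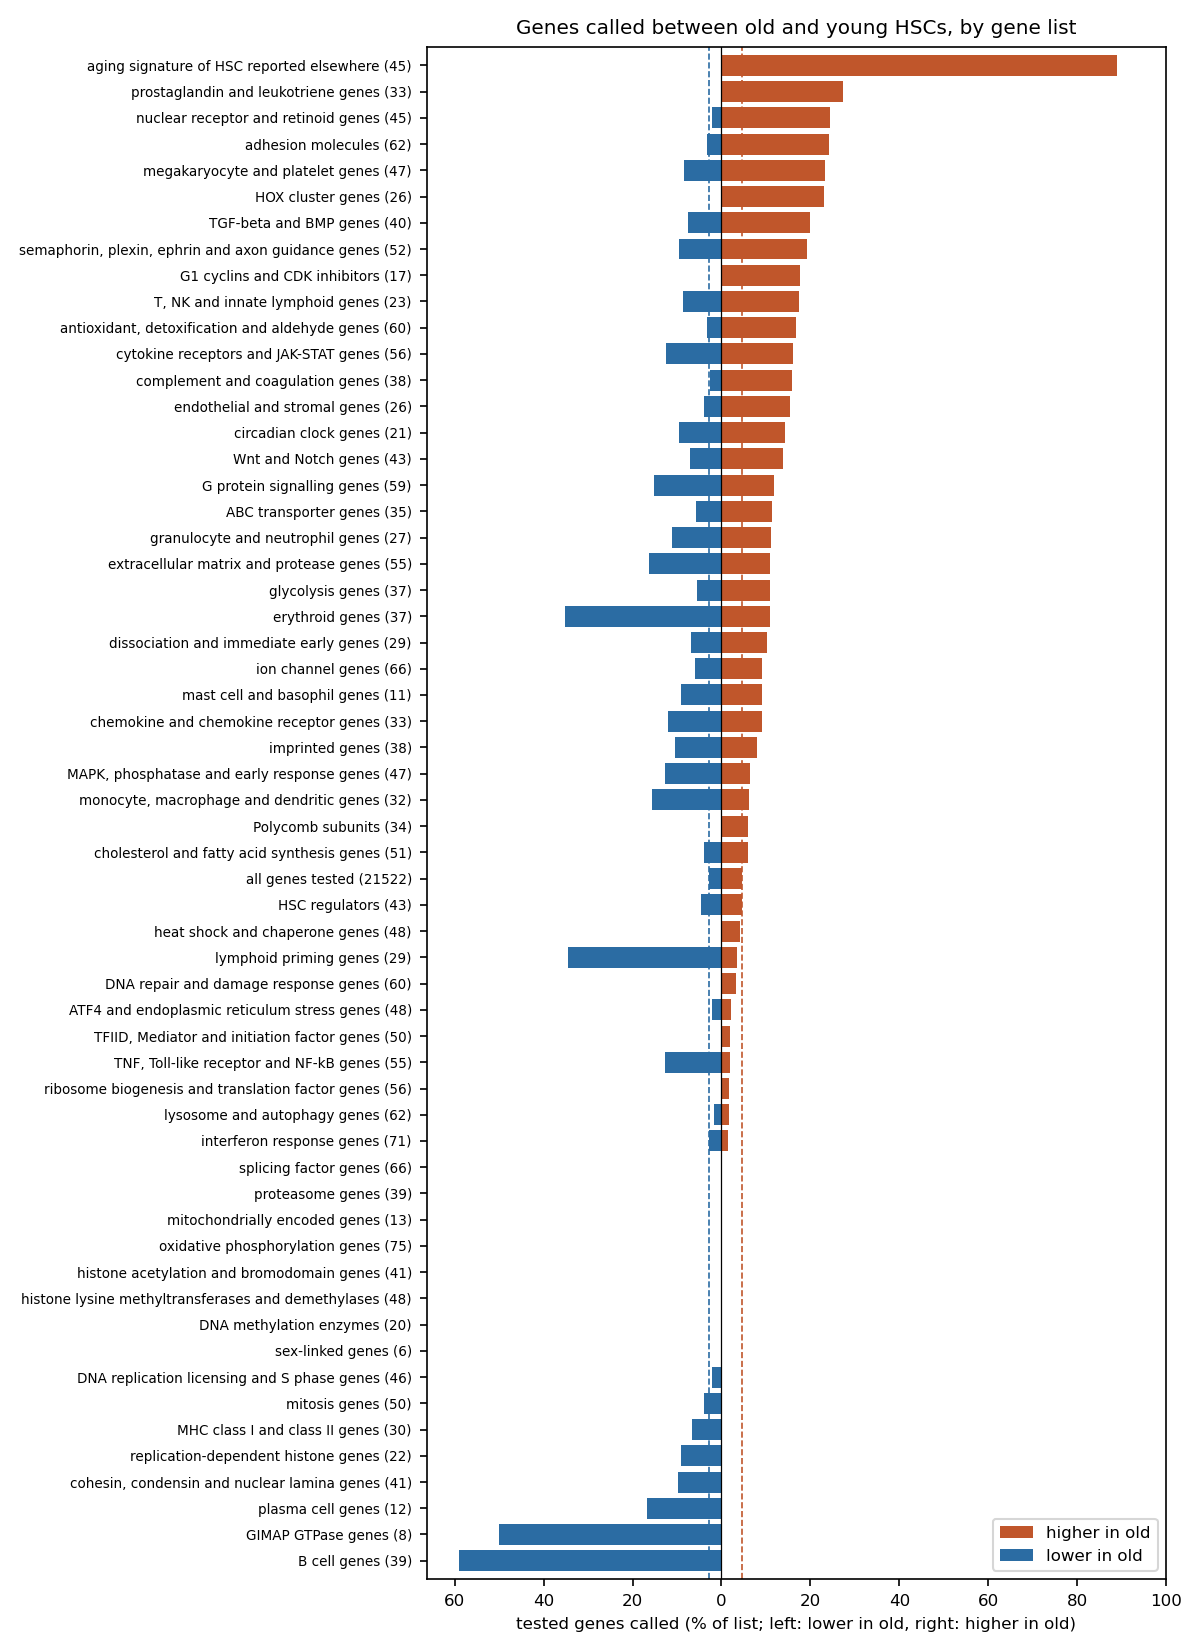
Percent of tested genes called higher (right) or lower (left) in OHSCs for 57 of 58 gene lists and for all genes, with the number tested in parentheses and dashed lines at the percent over all genes (4.69% and 2.83%). The aging signature leads on the right and the B cell, GIMAP, erythroid and lymphoid priming lists on the left, while oxidative phosphorylation, proteasome and splicing lists hold no called gene.

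Megakaryocyte and platelet genes moved unevenly: 11 of 47 tested members were called higher and 4 lower, with a median of 0.18. Members that rose included surface receptors of platelets. Itgb3, the beta chain of the fibrinogen receptor, had 89.95, 76.2, 82.2 and 107 CPM in YHSCs and 344 to 475 CPM (median 417) in OHSCs (log2 fold change 2.25 ± 0.11, adjusted p = 2.12e-08). Its partner chain Itga2b rose from 115, 98.8, 92.9 and 102 to between 204 and 274 CPM (median 239.6) (log2 fold change 1.24 ± 0.08, adjusted p = 2.71e-09), so both chains of this integrin were higher in every old library. Cavin2, a caveolar coat protein, rose by 1.65 ± 0.06 and Plek, a platelet kinase substrate, by 1.44 ± 0.07. Pf4, the chemokine stored in platelet granules, had 35.1, 26.9, 24.1 and 23.3 CPM in YHSCs and 19.8 to 50.3 CPM (median 22.3) in OHSCs (log2 fold change -0.03 ± 0.28), which did not pass the test. The 4 members called lower became 2 without young replicate 1 or without young replicate 4. Summed megakaryocyte markers ran from 146 to 179 CPM in YHSCs and from 260.0 to 344 in OHSCs, a rise carried by Itga2b, since Pf4 averaged 27.4 and 26.9 CPM, Gp9 averaged 27.4 and 35.9 CPM and was not called, and Gp1bb averaged 0.0553 and 0.203 CPM and had too few reads to be tested. The part of megakaryocytes or platelets in this was not tested.

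Erythroid genes split into members that fell, among them 2 regulators, and globins that rose. Of the list, 4 of 37 tested members were called higher and 13 lower. The master regulator Gata1 fell from 14.8, 12.4, 11.4 and 15.2 CPM to between 3.17 and 8.21 CPM (median 4.42) (log2 fold change -1.41 ± 0.22, adjusted p = 0.000236), and Klf1, the erythroid factor that acts with it, from 13.6, 9.63, 10.2 and 15.7 CPM to between 2.16 and 5.03 CPM (median 3.29) (log2 fold change -1.93 ± 0.19, adjusted p = 4.94e-07). Car1, an erythroid carbonic anhydrase, had 144, 113, 131 and 169 CPM in YHSCs and 0.316 to 19.1 CPM (median 6.88) in OHSCs (log2 fold change -4.09 ± 0.58, adjusted p = 0.000402). The old libraries lay below the young ones for Car1 and differed greatly among themselves, since the lowest held 0.316 CPM and the highest 19.1. Kel, which encodes the Kell blood group protein, fell by 3.47 on the log2 scale (SE 0.34, adjusted p = 2.2e-07).

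Globin transcripts went the other way. Hbb-bs, an adult beta globin, had 2.51, 3.74, 1.54 and 4.37 CPM in YHSCs and 10.99 to 96.1 CPM (median 27.9) in OHSCs (log2 fold change 3.54 ± 0.73, adjusted p = 0.00531), and Hba-a2, an alpha globin with a near-identical copy that can share its reads, rose by 3.48 ± 0.74. The globin sum was 14.8 to 18.7 CPM in YHSCs and 28.1 to 184 in OHSCs, highest in old replicate 8. Late erythroid cells and their free RNA are rich in globin, and their part in this rise was not tested. Alas2, the first enzyme of erythroid heme synthesis, chosen after its values were seen, rose as well (log2 fold change 1.28 ± 0.34, adjusted p = 0.0127), a call lost without young replicate 2 (adjusted p = 0.0553) or without young replicate 4 (adjusted p = 0.0565). Of the 4 erythroid genes called higher, 1 was called without young replicates 3 and 4 and old replicate 2, the libraries with neutrophil markers, where Hbb-bs stood at 3.66 with an adjusted p of 0.0627. With the replicate number as a block, Hbb-bs stood at 3.04 with an adjusted p of 0.055. Without the 3 libraries with the most or fewest genes detected 1 was called as well, with adjusted p = 0.0553 for Hba-a2 and 0.154 for Alas2.

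The promoters of a falling and 2 rising erythroid genes are shown because AGATAA is a form of the site that GATA factors bind. Only this form was searched, on both strands, and it is printed in capitals. The sequences are from RefSeq (GRCm38.p6, 250 bases before to 50 bases after the start, in the direction of the gene). Kel lies on the minus strand (chr6:41704276-41704575), Alas2 on the plus strand (chrX:150547167-150547466) and Hbb-bs on the minus strand (chr7:103827879-103828178).
Kel: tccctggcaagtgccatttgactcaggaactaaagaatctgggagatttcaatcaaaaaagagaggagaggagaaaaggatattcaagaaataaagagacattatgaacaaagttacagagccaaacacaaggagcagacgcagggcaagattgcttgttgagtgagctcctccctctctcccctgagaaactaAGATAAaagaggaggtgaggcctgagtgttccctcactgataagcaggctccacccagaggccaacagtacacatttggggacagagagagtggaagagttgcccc
Alas2: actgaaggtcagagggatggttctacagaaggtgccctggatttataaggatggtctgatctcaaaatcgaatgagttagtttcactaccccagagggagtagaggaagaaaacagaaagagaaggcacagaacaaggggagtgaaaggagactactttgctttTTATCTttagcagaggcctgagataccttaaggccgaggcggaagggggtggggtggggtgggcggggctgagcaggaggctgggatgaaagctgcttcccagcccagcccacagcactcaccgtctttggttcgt
Hbb-bs: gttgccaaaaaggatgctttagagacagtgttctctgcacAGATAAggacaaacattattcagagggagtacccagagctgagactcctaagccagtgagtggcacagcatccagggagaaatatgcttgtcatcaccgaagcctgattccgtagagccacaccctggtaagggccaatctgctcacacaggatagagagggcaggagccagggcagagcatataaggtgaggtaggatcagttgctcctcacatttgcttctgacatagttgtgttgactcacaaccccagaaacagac
Each holds 1 match of AGATAA, so genes that moved in opposite directions share these letters. Other forms of the GATA site were not counted. Of 29 tested erythroid genes with a promoter in the table, 11 hold a match (37.9%), where a gene counts if any of its promoters does. Of all 32851 promoters, counted singly, 11.2% hold a match, and a match does not show binding.

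Granulocyte and monocyte genes were called in both directions. Of granulocyte genes, 3 of 27 tested members were called higher and 3 lower. Mpo, the granule enzyme myeloperoxidase, had 0.712, 0.795, 28.7 and 0.495 CPM in YHSCs and 0.446 to 1.5 CPM (median 0.722) in OHSCs, and its call as lower (adjusted p = 0.047) rests on young replicate 3, which stood high in neutrophil markers. Chil3, a chitinase-like protein of neutrophils and macrophages, was high in young replicates 3 and 4 alone (0.0419, 0.327, 22.2 and 9.49 CPM), the libraries high in those markers. Without young replicates 3 and 4 and old replicate 2, the log2 fold change was 0.10 for Mpo and 0.60 for Chil3, neither past the test, and no granulocyte gene was called lower. With 1 library left out, the count called lower ran from 0 without young replicate 3 to 8 without old replicate 2. By contrast Prtn3, the protease proteinase 3, had 125, 123, 118 and 136 CPM in YHSCs and 286 to 342 CPM (median 318) in OHSCs (log2 fold change 1.32 ± 0.05, adjusted p = 2.8e-15), and Csf3r, the G-CSF receptor, rose by 0.90 ± 0.08. Of monocyte, macrophage and dendritic genes, 2 of 32 tested members were called higher and 5 lower, with 2 lower without the libraries with neutrophil markers and Csf1r, the M-CSF receptor, at -0.09 ± 0.10.

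B cell genes had the largest share of members called lower among the 58 lists. Of B cell genes, 0 of 39 tested members were called higher and 23 lower, with a median of -1.51. Cd79a, a signalling chain of the B cell receptor, had 12.3, 14.2, 28.8 and 31.6 CPM in YHSCs and 0.312 to 1.35 CPM (median 0.821) in OHSCs (log2 fold change -4.71 ± 0.32, adjusted p = 3.26e-07). All 4 young libraries lay above all 8 old ones for this gene, including young replicates 1 and 2, where plasma cell and neutrophil markers were low but the B cell marker sum (136 and 146 CPM) exceeded that of 7 of the 8 old libraries (44.3 to 128 CPM). Without young replicates 3 and 4 and old replicate 2, 20 B cell genes were called lower, and Cd79a stood at -3.93 (adjusted p = 1.82e-09). The immunoglobulin segments followed another pattern, with a sum of 2460.0 CPM in young replicate 4, 133 to 252 in the other young libraries and 36.8 to 359.6 in OHSCs. The part of B cells or plasma cells in these calls was not tested.

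Of genes of lymphoid priming, some of which are also on the B cell list, 1 of 29 tested members were called higher and 10 lower. The count called higher was 0 without young replicate 4 and 2 without old replicate 2, and the median was -0.26. Ikzf3, a lymphoid zinc finger factor, had 2.14, 3.41, 6.12 and 4.41 CPM in YHSCs and 0.211 to 1.04 CPM (median 0.608) in OHSCs (log2 fold change -2.72 ± 0.28, adjusted p = 1.22e-07). Ccr7, the receptor that guides lymphocytes to lymph nodes, fell by 3.06 on the log2 scale and Ebf1, the early B cell factor, by 2.22, while Il7r, the interleukin 7 receptor, had few reads at both ages (log2 fold change -0.11 ± 0.50). Ebf1 is also a B cell marker here, and Ikzf3, like Cd79a, was highest in young replicates 3 and 4. The part of B cells in the priming calls was not tested. Of the GIMAP genes, GTPases of lymphocyte survival, 0 of 8 tested members were called higher and 4 lower. Gimap7 had 4.86, 5.09, 6.57 and 6.89 CPM in YHSCs and 0.549 to 1.71 CPM (median 0.843) in OHSCs (log2 fold change -2.65 ± 0.21, adjusted p = 1.18e-09), and Gimap6, well expressed at both ages, fell from 431, 395, 447 and 452 to between 236 and 339 CPM (median 279.6) (log2 fold change -0.61 ± 0.10, adjusted p = 0.000459). Of T, NK and innate lymphoid genes, 4 of 23 tested members were called higher and 2 lower. Klrb1c, the receptor NK1.1, rose from 12.7, 15.8, 16.7 and 17.99 CPM to between 53.5 and 80.7 CPM (median 70.9) (log2 fold change 2.13 ± 0.14, adjusted p = 7.13e-08). Klrd1 and Ncr1, other NK cell genes, averaged 0.194 and 0.113 CPM in YHSCs and 0.0214 and 0.0648 CPM in OHSCs and had too few reads to be tested, and the part of NK cells in this rise was not tested.

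**Figure D3:**
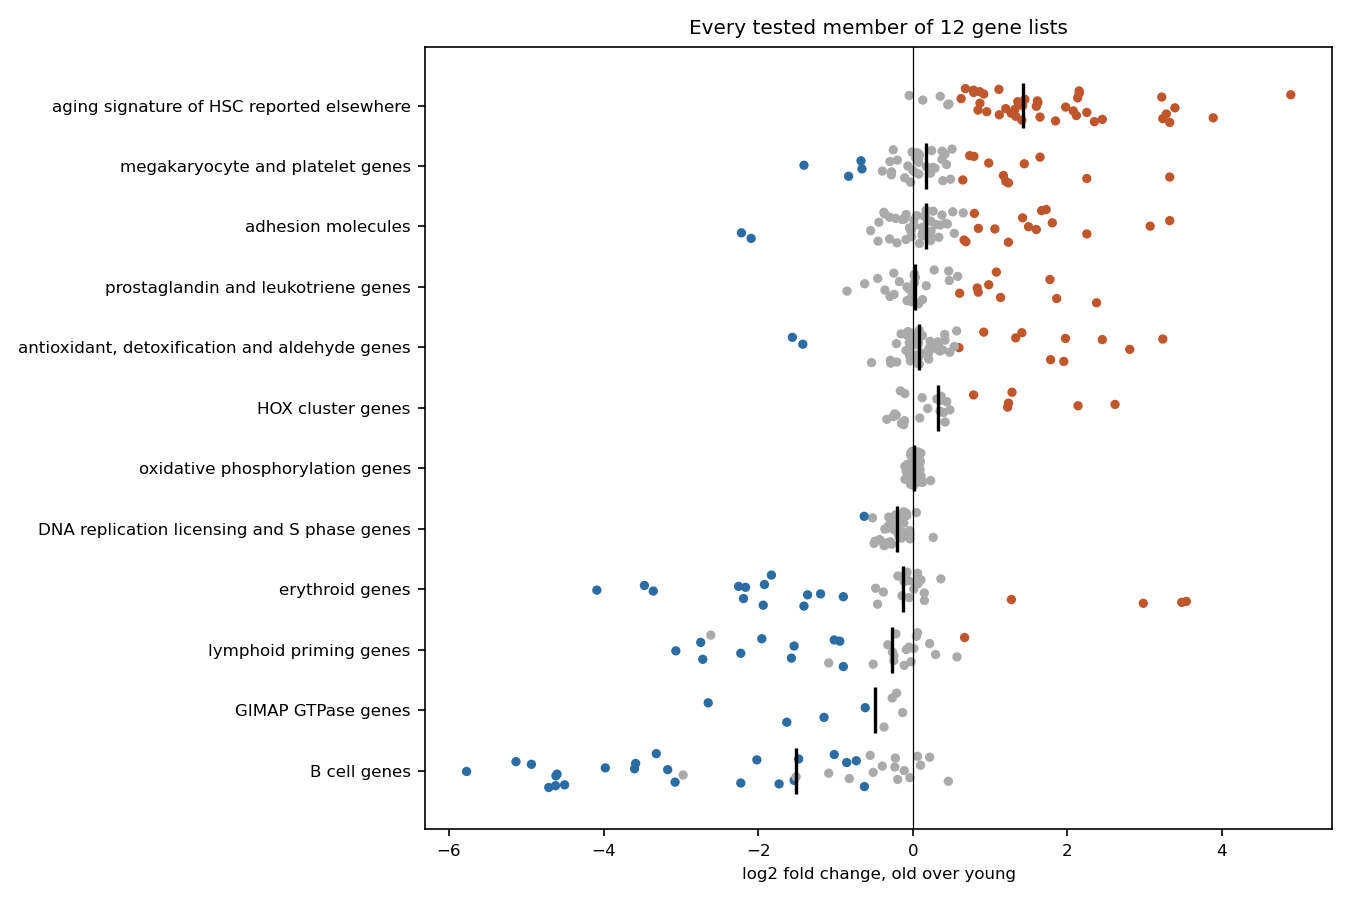
Log2 fold change of OHSCs over YHSCs for every tested member of 12 gene lists, with called members in colour (orange higher, blue lower), others in grey and the list's median as a black bar. B cell members spread far to the left (median -1.51), oxidative phosphorylation members crowd around 0, and erythroid members lie on both sides.

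Cytokine receptor genes were called in both directions. Of cytokine receptors and JAK-STAT genes, 9 of 56 tested members were called higher and 7 lower, with 5 higher with the replicate number as a block. Kit, the stem cell factor receptor that HSCs depend on, stood at -0.03 ± 0.04 (adjusted p = 0.766). Osmr, the oncostatin M receptor, had 2.39, 4.72, 2.27 and 4.25 CPM in YHSCs and 31.5 to 40.5 CPM (median 34.4) in OHSCs (log2 fold change 3.39 ± 0.16, adjusted p = 1.54e-10), and Socs3, the inhibitor that gp130 receptors induce, rose by 2.13 ± 0.28 (adjusted p = 0.000264, and 0.0596 with that block). Il5ra, the interleukin 5 receptor, fell by 2.37 and Il1rl1, the interleukin 33 receptor, by 2.16 on the log2 scale.

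Of TGF-beta and BMP genes, 8 of 40 tested members were called higher and 3 lower, with a median of 0.00 (0.07 without young replicate 2). Members of the BMP branch were called in both directions, and of 9 tested genes with the stem Bmp 2 were called higher and 2 lower. Bmp4, a ligand, had 5.95, 5.61, 8.47 and 8.29 CPM in YHSCs and 21.7 to 29.6 CPM (median 27.01) in OHSCs (log2 fold change 1.91 ± 0.11, adjusted p = 9.16e-12). Bmpr1a, a receptor, had 6.704, 6.73, 5.76 and 7.84 CPM in YHSCs and 28.4 to 50.9 CPM (median 40.98) in OHSCs (log2 fold change 2.58 ± 0.15, adjusted p = 5.18e-09). Id2, a target that blocks basic helix-loop-helix factors, rose by 1.33 ± 0.07, whereas Smad6, an inhibitor of the branch, fell from 16.5, 16.4, 14.7 and 16.3 to between 5.99 and 7.53 CPM (median 6.94) (log2 fold change -1.23 ± 0.09, adjusted p = 1.07e-10). None of these 4 genes overlapped between the ages. The ligand genes Bmp2 and Bmp8a, both at about 1 CPM or less in OHSCs, fell by 1.18 and 1.43 on the log2 scale (adjusted p = 0.0498 and 0.000104), Bmp7, another ligand at a low level, chosen after its values were seen, rose by 0.77 ± 0.24, and Id1, a target like Id2, chosen after its values were seen, fell by 1.08. The call of Bmp2 was lost in 9 of 12 fits with 1 library left out and that of Bmp7 without young replicate 2 or without young replicate 3. Tgfb1, the main TGF-beta ligand of bone marrow, was 0.24 ± 0.05, past the test but below 1.5-fold.

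Of Wnt and Notch genes, 6 of 43 tested members were called higher and 3 lower. Wnt5a, a ligand of the noncanonical branch, rose from 0.587, 1.22, 1.496 and 0.866 CPM to between 1.81 and 6.49 CPM (median 3.298) (log2 fold change 1.82 ± 0.32, adjusted p = 0.000306), and Ror2, a receptor for it, rose by 1.33 ± 0.12. Of prostaglandin and leukotriene genes, 9 of 33 tested members were called higher and 0 lower, with 1 lower without young replicate 1. Cysltr2, a cysteinyl leukotriene receptor, had 33.7, 35.3, 32.6 and 37.05 CPM in YHSCs and 106 to 130.3 CPM (median 117) in OHSCs (log2 fold change 1.78 ± 0.06, adjusted p = 4.86e-16), and Hpgds, which makes prostaglandin D, rose by 1.86 ± 0.10. Of nuclear receptor and retinoid genes, 11 of 45 tested members were called higher and 1 lower. Rorb, an orphan receptor, had 4.36, 6.83, 5.17 and 4.66 CPM in YHSCs and 26.2 to 37.6 CPM (median 34.4) in OHSCs (log2 fold change 2.67 ± 0.12, adjusted p = 6.75e-13), and Rarb, the retinoic acid receptor beta, rose by 0.90 ± 0.11.

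The interferon and NF-kB lists held few genes called higher at 1.5-fold, while complement genes were called higher more often than lower. Of interferon response genes, 1 of 71 tested members were called higher and 2 lower, with a median of -0.15. Mx1, an antiviral GTPase, fell from 5.45, 6.87, 6.25 and 8.91 CPM to between 1.47 and 5.19 CPM (median 2.61) (log2 fold change -1.27 ± 0.23, adjusted p = 0.000414), and Rtp4, an interferon-induced chaperone, rose by 0.86 ± 0.19. The count of interferon genes called lower ran from 1 (without young replicate 3 or 4) to 5 (without old replicate 3) with 1 library left out, and with the replicate number as a block 7 were called lower and 2 higher. Of TNF, Toll-like receptor and NF-kB genes, 1 of 55 tested members were called higher and 7 lower, with 12 higher and 12 lower on the adjusted p alone and 2 called higher without young replicate 4. Ltb, which encodes lymphotoxin beta, fell from 230.3, 213, 241 and 245 CPM to between 83.8 and 134 CPM (median 107) (log2 fold change -1.09 ± 0.12, adjusted p = 4.4e-05), and the NF-kB subunit Rel fell by 0.97 on the log2 scale. Of complement and coagulation genes, 6 of 38 tested members were called higher and 1 lower, with 0 lower without young replicate 1 or without young replicate 2 and 2 lower without old replicate 3. C4b, a complement component with a near-identical copy that can share its reads, had 2.14, 1.64, 1.45 and 2.64 CPM in YHSCs and 35.95 to 85.2 CPM (median 61.8) in OHSCs (log2 fold change 4.97 ± 0.33, adjusted p = 8.56e-07), without overlap. Of chemokine and chemokine receptor genes, 3 of 33 tested members were called higher and 4 lower, with 2 lower with the replicate number as a block or with the covariate. Of a chosen list of MHC genes, which holds none of the run of 8 genes called higher on chromosome 17, 0 of 30 tested members were called higher and 2 lower, with 0 lower without the libraries with neutrophil markers and 1 lower without the libraries with the most or fewest genes detected. Of dissociation and immediate early genes, which can mark handling of the cells, 3 of 29 tested members were called higher and 2 lower, with 1 lower without young replicate 1 or without old replicate 2. Jun, an AP-1 subunit, rose from 21.5, 22.4, 22.9 and 24.01 CPM to between 41.9 and 73.3 CPM (median 57.9) (log2 fold change 1.32 ± 0.13, adjusted p = 6.94e-06), and Fosl2, another, by 0.63 ± 0.10, both without overlap between the ages, while Fos stood at 0.63 ± 0.26 (adjusted p = 0.0935). The part of handling in this was not tested.

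Adhesion molecules were called higher more often than lower, while matrix genes were called in both directions. Of adhesion molecules, 15 of 62 tested members were called higher and 2 lower, with a median of 0.17 (0.31 without young replicate 2). Cldn5, a tight junction protein of endothelium, had 6.66, 9.77, 7.98 and 8.33 CPM in YHSCs and 56.2 to 82.8 CPM (median 69.02) in OHSCs (log2 fold change 3.07 ± 0.13, adjusted p = 6.63e-11), while Itgb5, an integrin chain, fell from 11.2, 10.5, 9.61 and 9.08 to between 1.02 and 3.001 CPM (median 2.101) (log2 fold change -2.22 ± 0.17, adjusted p = 6.31e-10). Of extracellular matrix and protease genes, 6 of 55 tested members were called higher and 9 lower, with a median of -0.19 (-0.03 without young replicate 2). Matn4, a matrilin of the matrix, rose by 3.22 ± 0.24 and Col5a1, a collagen chain, fell by 1.96 on the log2 scale. Of endothelial and stromal genes, 4 of 26 tested members were called higher and 1 lower, with 2 higher without young replicate 3 and 2 lower without young replicate 2 or without old replicate 4, and among their markers Cdh5, the cadherin of endothelium, stood at 0.463 CPM in YHSCs and 0.454 in OHSCs on average. Kdr, a VEGF receptor and another endothelial marker, rose from 18.4, 17.1, 20.03 and 24.2 CPM to between 34.4 and 57.1 CPM (median 43.9) (log2 fold change 1.17 ± 0.15, adjusted p = 8.71e-05), and Ramp2, a partner of the adrenomedullin receptor, rose by 2.12 ± 0.22, both without overlap between the ages. The part of endothelial cells in this was not tested. Ehd3, a membrane trafficking protein, had 58.9, 52.3, 58.5 and 60.3 CPM in YHSCs and 199.6 to 274 CPM (median 237) in OHSCs (log2 fold change 2.08 ± 0.08, adjusted p = 1.48e-12), and Myh10, a nonmuscle myosin, fell by 1.47 on the log2 scale. Of guidance genes, 10 of 52 tested members were called higher and 5 lower. Plxna2, a semaphorin receptor, fell from 12.9, 11.8, 11.9 and 13.5 to between 1.601 and 3.97 CPM (median 2.903) (log2 fold change -2.11 ± 0.15, adjusted p = 1.14e-10), and Ntn4, a netrin, rose by 1.41 ± 0.12. The 5 guidance genes called lower became 3 without young replicate 1 or without old replicate 8.

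Many S phase genes were slightly lower. Of S phase genes, 0 of 46 tested members were called higher and 1 lower, but on the adjusted p alone 1 higher and 24 lower, with a median of -0.21, and 0 to 2 were called lower with 1 library left out. Mcm3, a subunit of the replicative helicase, had 236, 225, 229 and 236 CPM in YHSCs and 162 to 196 CPM (median 185) in OHSCs (log2 fold change -0.35 ± 0.05, adjusted p = 2.79e-06), and E2f1, which drives entry into S phase, fell by 0.63 on the log2 scale. Of mitosis genes, 0 of 50 tested members were called higher and 2 lower, with 4 lower without young replicate 3 and a median of -0.13, and Mki67, the marker of cycling cells, stood at -0.20 ± 0.13 (adjusted p = 0.34). Cdkn2c, an inhibitor of the cyclin D kinases, rose from 7.88, 5.47, 4.44 and 4.58 CPM to between 17.4 and 21.2 CPM (median 18.1) (log2 fold change 1.72 ± 0.12, adjusted p = 1.34e-10). Of DNA repair genes, 2 of 60 tested members were called higher and 0 lower, but 3 higher and 11 lower on the adjusted p alone, with Trp53, which encodes p53, at 0.03 ± 0.04.

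Few chromatin regulators passed 1.5-fold. No member of the lists of DNA methylation enzymes (20 tested), histone methyltransferases and demethylases (48) or acetylation and bromodomain genes (41) was called in edgeR, though 0 higher and 8 lower passed the adjusted p alone in the first, 4 higher and 7 lower in the second and 2 higher and 4 lower in the third. Over all genes tested, 11.9% were higher and 8.67% lower on the adjusted p alone. Dnmt3a, a de novo DNA methyltransferase, was at -0.37 ± 0.04 (adjusted p = 1.25e-07). Of Polycomb subunits, 2 of 34 tested members were called higher and 0 lower (1 higher without young replicate 1), but 4 higher and 8 lower on the adjusted p alone, with Ezh2, the methyltransferase of dividing cells, at -0.27 ± 0.06 and its paralog Ezh1 at 0.55 ± 0.05. Of architecture genes, 0 of 41 tested members were called higher and 4 lower. Hmga2, a chromatin protein of fetal and young stem cells, had 26.6, 26.04, 26.1 and 24.6 CPM in YHSCs and 13.4 to 16.6 CPM (median 14.5) in OHSCs (log2 fold change -0.81 ± 0.07, adjusted p = 3.81e-09). Satb1, a chromatin organizer of lymphoid cells, fell by 1.57 and Lmna, which encodes lamin A, by 0.93 on the log2 scale. Ctcf, the insulator protein, stood at -0.02 ± 0.05. Of TFIID, Mediator and initiation factor genes, 1 of 50 tested members were called higher and 0 lower, and the count called higher ran from 0 to 2 with 1 library left out and was 0 with DESeq2's size factors, with the block and with the covariate. Btaf1, whose full-length protein removes TBP from DNA, was at 0.53 ± 0.09 at the gene level (adjusted p = 0.000807), and Tbp itself at 0.00 ± 0.04. The gene-level count does not separate transcript variants of Btaf1.

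**Figure D4:**
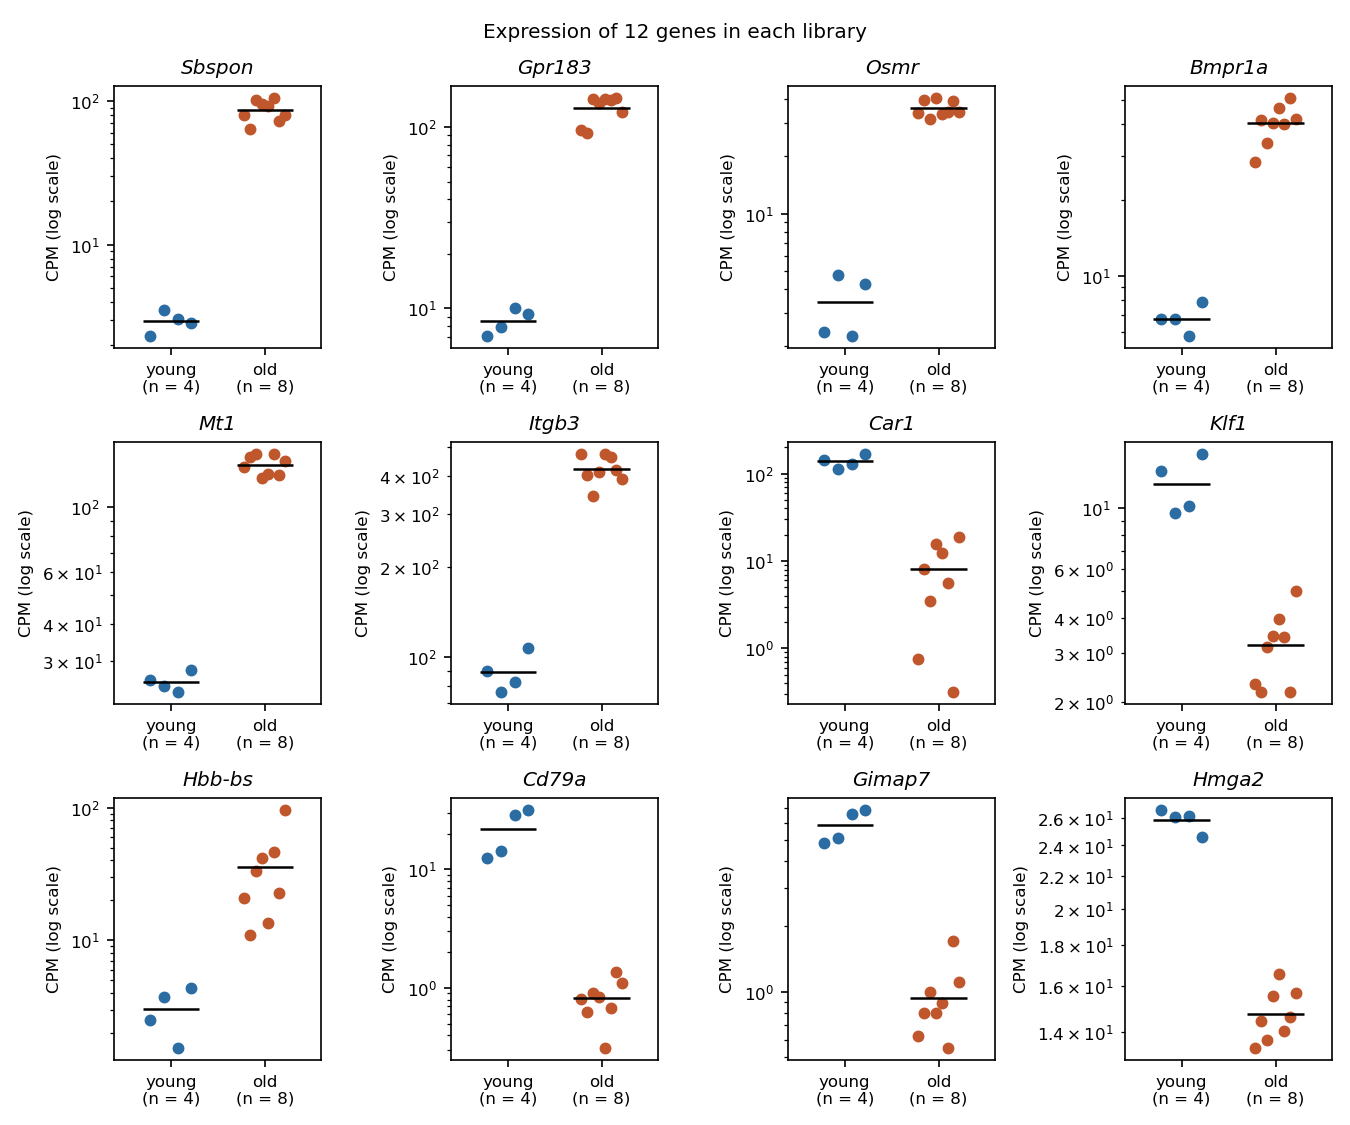
CPM in each library on a log axis for 12 genes, with 1 point per library and the mean of each age as a bar. The ages do not overlap for any of the 12 genes, and the old libraries spread widest for Car1 (0.316 to 19.1 CPM).

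Oxidative phosphorylation, proteasome and splicing lists held no called gene, while glycolysis genes were called in both directions. Of 75 oxidative phosphorylation genes none was called in edgeR, and 1 higher and 0 lower passed the adjusted p alone. The same held for the proteasome (39 tested, 3 higher and 0 lower), splicing factors (66 tested, 4 higher and 2 lower) and a chosen list of mitochondrially encoded genes (13 tested, 0 higher and 0 lower). Of all 25 tested genes on the mitochondrial chromosome, 0 were called higher and 1 lower. Of ribosome biogenesis and translation factor genes, 1 of 56 tested members were called higher and 0 lower, with 0 higher with DESeq2's size factors or without young replicate 1, young replicate 2, old replicate 4 or old replicate 7, and 1 lower without young replicate 1. Of glycolysis genes, 4 of 37 tested members were called higher and 2 lower, with 1 lower without young replicate 1. Hk2, a hexokinase, rose from 25.3, 27.5, 30.6 and 31.02 CPM to between 51.9 and 66.02 CPM (median 62.96) (log2 fold change 1.09 ± 0.07, adjusted p = 1.44e-10), and Pklr, the pyruvate kinase of liver and red cells, fell by 2.30 on the log2 scale. Of cholesterol and fatty acid genes, 3 of 51 tested members were called higher and 2 lower (0 lower without the libraries with neutrophil markers), with 7 higher and 20 lower on the adjusted p alone. Nupr1, a stress-induced nuclear protein, had 71.7, 71.9, 76.3 and 78.1 CPM in YHSCs and 248 to 312 CPM (median 259.6) in OHSCs (log2 fold change 1.85 ± 0.06, adjusted p = 8e-15), and of the ATF4 and endoplasmic reticulum stress list 1 of 48 tested members were called higher and 1 lower, with 1 to 3 lower with 1 library left out.

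Antioxidant and detoxification genes were called higher more often than lower: 10 of 60 tested members were called higher and 2 lower, with a median of 0.08. Metallothioneins are small proteins that bind zinc and other metals. Mt1 had 25.8, 24.6, 23.4 and 27.97 CPM in YHSCs and 126 to 152 CPM (median 140.0) in OHSCs (log2 fold change 2.45 ± 0.07, adjusted p = 5.91e-18). Mt2 had 3.73, 3.46, 2.81 and 2.81 CPM in YHSCs and 25.7 to 37.2 CPM (median 29.3) in OHSCs (log2 fold change 3.24 ± 0.12, adjusted p = 1.34e-15). Every old library exceeded every young one for both. Gstm2, a glutathione transferase, rose from 13.1, 17.7, 13.9 and 14.03 CPM to between 89.02 and 122 CPM (median 100.2) (log2 fold change 2.81 ± 0.12, adjusted p = 1.54e-10) and Gpx3, a secreted glutathione peroxidase, by 1.96 ± 0.12. Sod1, a superoxide dismutase, stood at 0.09 ± 0.05.

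Mt1, Mt2 and Mt3 lie next to each other on chromosome 8 and were called higher as a run of 4 neighbours (94152607 to 94180327, with Gm45774). Mt3, the brain metallothionein, chosen after its values were seen, was barely detected, at 0.335, 0.187, 0.0906 and 0.124 CPM in YHSCs and 0.293 to 1.203 CPM (median 0.754) in OHSCs (log2 fold change 1.98 ± 0.48, adjusted p = 0.0036). Without the libraries with neutrophil markers Mt3 had a log2 fold change of 1.61 with adjusted p = 0.0692, which leaves fewer than 4 neighbours called. Metallothionein genes answer to metals through elements with the core TGCACNC or TGCGCNC, where N is any base, and the promoters are shown to compare this core, searched on both strands and printed in capitals (RefSeq, GRCm38.p6, all on the plus strand, chr8:94178839-94179138, chr8:94172368-94172667 and chr8:94152357-94152656).
Mt1: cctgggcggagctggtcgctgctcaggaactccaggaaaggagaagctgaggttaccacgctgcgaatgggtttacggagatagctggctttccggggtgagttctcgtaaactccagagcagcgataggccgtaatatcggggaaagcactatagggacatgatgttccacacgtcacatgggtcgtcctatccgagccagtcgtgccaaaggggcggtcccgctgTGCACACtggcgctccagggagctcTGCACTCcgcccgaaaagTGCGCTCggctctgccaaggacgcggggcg
Mt2: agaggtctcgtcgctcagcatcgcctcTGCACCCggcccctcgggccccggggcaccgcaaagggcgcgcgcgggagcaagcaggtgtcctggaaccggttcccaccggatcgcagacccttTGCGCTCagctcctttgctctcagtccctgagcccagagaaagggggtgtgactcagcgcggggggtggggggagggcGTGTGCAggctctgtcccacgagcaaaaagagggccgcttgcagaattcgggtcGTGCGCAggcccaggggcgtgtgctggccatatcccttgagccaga
Mt3: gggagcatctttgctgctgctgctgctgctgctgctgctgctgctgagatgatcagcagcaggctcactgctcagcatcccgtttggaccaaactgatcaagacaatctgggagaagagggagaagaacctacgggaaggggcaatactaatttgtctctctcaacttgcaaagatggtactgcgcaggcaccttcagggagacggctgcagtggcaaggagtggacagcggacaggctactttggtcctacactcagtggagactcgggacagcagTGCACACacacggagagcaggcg
Mt1 holds 3 matches, Mt2 holds 4 and Mt3 holds 1. Of all 32851 promoters in the table, 25.7% hold at least 1 and 1.97% at least 3, and a match does not show a working site.

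Of HOX cluster genes and cofactors, 6 of 26 tested members were called higher and 0 lower, with a median of 0.33 (0.18 without young replicate 4). The Hoxb cluster held 4 of them: Hoxb7 rose from 0.587, 0.888, 0.906 and 1.49 CPM to between 3.18 and 5.36 CPM (median 4.39) (log2 fold change 2.14 ± 0.23, adjusted p = 1.63e-07), Hoxb8 by 2.62 ± 0.45 and Hoxb9 by 1.24 ± 0.19. Pbx3, a HOX cofactor, rose by 1.28 ± 0.07. Of imprinted genes, 3 of 38 tested members were called higher and 4 lower. H19, the imprinted noncoding RNA next to Igf2, fell from 1.63, 1.78, 1.41 and 1.61 CPM to between 0.0447 and 0.3801 CPM (median 0.309) (log2 fold change -2.62 ± 0.35, adjusted p = 3.62e-06). The 3 imprinted genes called higher became 1 without young replicate 1 or without young replicate 3. Of clock genes, 3 of 21 tested members were called higher and 2 lower, with Per2, a repressor of the clock, down by 0.80 on the log2 scale. The sources used here do not give the hour of collection.

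Grouped by the letters of their symbols, 293 families had at least 8 genes tested. C-type lectins (Clec) had 7 of 21 higher and 1 lower, and 4 of them lie in a run of neighbours called higher on chromosome 6 from 129375515 to 129452000. Clec2f rose by 2.54 and Clec12b by 1.28 on the log2 scale, and Clec2i fell by 2.23. Clustered beta protocadherins (Pcdhb), which give neurons surface identities, had 6 of 16 higher and 0 lower, with a median of 0.70. Pcdhb16 had 2.14, 3.27, 1.68 and 2.104 CPM in YHSCs and 6.34 to 13.6 CPM (median 9.42) in OHSCs (log2 fold change 2.11 ± 0.21, adjusted p = 2.95e-07). Mucins (Muc) had 4 of 10 higher and 0 lower, with a median of -0.23 since the other members were not called and stood below 0, led by Muc1 with 2.01, 1.73, 2.45 and 3.67 CPM in YHSCs and 17.2 to 42.7 CPM (median 22.9) in OHSCs (log2 fold change 3.41 ± 0.35, adjusted p = 2.8e-05). Genes with the stem Igf, which holds growth factors and their binding and other proteins, had 0 of 8 higher and 3 lower: Igf1, the growth hormone target, fell from 16.7, 21.7, 19.3 and 19.9 to between 3.38 and 7.48 CPM (median 4.68) (log2 fold change -1.95 ± 0.15, adjusted p = 6.21e-09), and Igf2bp2, an RNA binding protein of fetal and young HSCs, from 45.3, 47.5, 49.1 and 51.8 to between 9.07 and 14.5 CPM (median 13.5) (log2 fold change -1.93 ± 0.10, adjusted p = 1.53e-11). The third, the growth factor Igf2, fell by 0.95 on the log2 scale (adjusted p = 0.03), a call lost without young replicate 2 or without young replicate 3. Interferon-inducible GTPases (Gbp) had 0 of 10 higher and 3 lower, and regulators of G protein signalling (Rgs) had 0 of 18 higher and 4 lower. Of large families, genes with the stem Rpl, which include ribosomal proteins of the large subunit, had 0 of 94 higher and 0 lower. Zinc finger genes (Zfp) had 8 of 378 higher and 3 lower.

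Position, length and type of the called genes are given as a description without a test. Runs of at least 4 neighbouring tested genes called the same way numbered 12 higher and 7 lower, on GENCODE M21 positions of the GRCm38 genome. They included Sbspon and Gm37509 on chromosome 1 (15287254 to 15892722, 5 genes), the Ms4a genes on chromosome 19 (11443553 to 11531256, 5 genes, lower) and Gimap4, Gimap6 and Gimap7 on chromosome 6 (48684549 to 48752644, 4 genes, lower). A run of 8 genes called higher on chromosome 17 (36141758 to 36190287) holds near-identical MHC genes that can share reads, and overlapping neighbours cannot be separated because the strand setting of the counts is not known. Among 5 bins of genes by genomic span, in the longest 6.22% were called higher and 3.83% lower, against 3.64% and 1.69% in the shortest, whose median level was lower (1.29 against 21.1 CPM). By exonic length the longest bin had 4.46% called higher and 3.05% lower and the shortest 4.11% and 2.18%. Of long noncoding genes 4.80% were called higher and 2.11% lower, against 5.16% and 3.26% of protein-coding genes.

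ATAC-seq, which reads open chromatin, was used from 4 young and 4 old HSC samples, and regions over the starts of 14988 tested genes were compared. The median log2 fold change of accessibility was 0.03 at the 792 genes whose transcript was called higher and -0.25 at the 449 called lower, against -0.14 at all starts and -0.01 over all 89245 regions tested, so the values are read against the starts as a whole. Among genes called higher 53.9% had a start above 0, among those called lower 9.58% and among all genes 17.2%. In the 4 old libraries the median lay between -0.01 and 0.05 for genes called higher and between -0.28 and -0.21 for genes called lower, without overlap.

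The start regions of single genes, each tested against 0, did not always follow their transcripts. Accessibility was higher at Mt1 (log2 fold change 0.76 ± 0.07, adjusted p = 2.82e-12), Mt2 (0.71 ± 0.08, adjusted p = 3.81e-10) and Gstm2 (1.58 ± 0.19, adjusted p = 5.47e-10), and lower at Gimap7 (-1.09 ± 0.23, adjusted p = 0.000191). At Sbspon, with a large rise in transcript, the start region was at 0.09 ± 0.08, adjusted p = 0.443, and at Bmpr1a at 0.08 ± 0.06, adjusted p = 0.339. Neither differed from 0 by the test, but both values lay above the median of all starts (-0.14) and of genes called higher (0.03). Kel had a start more accessible in OHSCs (0.53 ± 0.20, adjusted p = 0.0308) although its transcript fell.

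**Figure D5:**
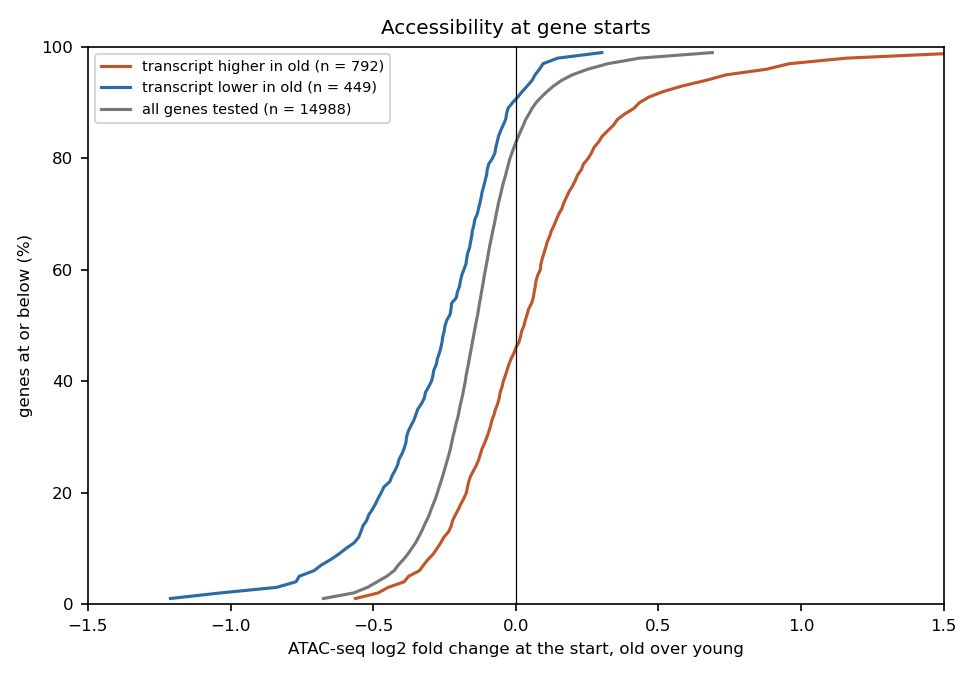
Cumulative percent of genes (1st to 99th percentile) by the ATAC-seq log2 fold change at their starts, old over young, for genes whose transcript was called higher (792), called lower (449) and all tested (14988). The curve of genes called higher lies to the right of all genes (median 0.03 against -0.14) and that of genes called lower to the left (-0.25).

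A small set of genes at each age varied widely between libraries, and those named here were chosen after their values were seen. Over 12462 genes above 5 CPM in OHSCs, the median coefficient of variation beyond counting noise was 0.0616 among old libraries and 0.0459 among young pools, and 32 genes exceeded 0.5 in OHSCs. Among genes above 5 CPM in YHSCs 32 also exceeded 0.5 there. Old replicate 3 was highest for the macrophage genes C1qb, with 2.61 to 28.4 CPM (median 5.01) over the old libraries, and Hmox1, with 7.98 to 68.1 CPM (median 19.6). Slc15a2, a peptide transporter, spanned 0.265 to 40.7 CPM (median 11.4) in OHSCs against 21.03, 32.2, 17.2 and 22.8 CPM in YHSCs. In its highest library, old replicate 5, the sum of macrophage markers was 27.1 CPM, and the part of other cells in this spread was not tested.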

How the data were processed

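Per the methods, RNA of sorted HSCs was extracted with TRIzol and a Direct-zol column and sequenced on an Illumina HiSeq. The labels name a SMARTer total RNA kit and the methods a SMART-Seq kit with Nextera XT, and which was used was not settled here. The deposited values are raw counts per gene, which the authors made with featureCounts (GENCODE M22) after adapter trimming and STAR alignment to mm10. No source used here states the STAR version, the strand setting or how multi-mapped reads were treated, so overlapping genes, antisense genes and near-identical copies remain uncertain. The ATAC-seq files hold the authors' deposited raw counts per consensus region, and 4 old columns were not used because no listed sample could be tied to them. Files without a header were tied to samples by the name they share with a title.

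The 92 spike-in RNAs were left out of the library sizes, which leaves 55376 genes. Genes were kept by filterByExpr, library sizes were adjusted by TMM, and ages were compared in edgeR 4.0.16 (R 4.3.3) by the quasi-likelihood test in its robust form, with p-values adjusted by Benjamini-Hochberg over all genes tested. TMM cannot show a shift shared by most genes. Errors after ± are standard errors of that fit, given on the log2 scale. Calls required a change of over 1.5 times with adjusted p under 0.05. Regions above 1.5 CPM in at least 4 ATAC-seq libraries were tested in the same way, and a gene's value is the mean of the regions over its annotated starts. The analysis was tested on simulated data. No pair of libraries was alike within sampling noise, with a lowest chi-square of 3.95 per degree of freedom within an age.

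The members of the 58 gene lists, the marker lists and the families were chosen with earlier results of these data known. The genes named are the 8 largest changes each way among called genes that do not overlap and reach 5 CPM, the first 2 members of a list and up to 4 called members with the largest change at 1 CPM or more, and up to 3 called members of a family, and some of these, with 1 gene list, are not reported here. Genes outside this are said to be chosen after their values were seen, as are the genes listed by position. A comparison of promoter sequence between called and other genes was void, because 78.9% of protein-coding genes tested had a promoter in the RefSeq table, 73.9% of those called higher and 77.9% of those called lower, under the 80% required.

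Alternatives were DESeq2 1.42.0, its size factors in edgeR, no filter, other fold change thresholds, the replicate number as a block and each library left out. A covariate for the number of genes detected and the exclusion of 2 sets of 3 libraries were added after seeing the data. The other experiments of the series and the histone mark tables were not used here.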

Additional observations from a re-analysis of the deposited data

Results flagged for a closer look

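Within an age, a library was looked at again when its gap to the nearest of the others was a large part of the age's whole range (Dixon's ratio above the 95% critical value), over marker sums, library measures and the genes named. Chance gives about 1 such library in 20 groups if groups are independent and values normally spread, and 24 of 268 groups met the rule. Marker sums and genes overlap here, and some genes were named because they varied widely. The rates can therefore not be compared. Marker sums stood apart in young replicate 4 for B cells (1037 CPM), plasma cells (254 CPM) and immunoglobulin segments (2460.0 CPM), and in young replicate 1 for megakaryocytes (179 CPM). Among the old libraries, replicate 7 stood apart for B cell markers (278 CPM), replicate 2 for neutrophil markers (95.6 CPM) and replicate 3 for macrophage markers (131 CPM). Old replicate 8 stood apart for erythroid markers (162 CPM) and the globin sum (184 CPM). Old replicate 2 had the highest share of spike-in reads (6.93%) and old replicate 1 the lowest share of mitochondrial reads (0.851%).

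Genes followed these libraries in part. Old replicate 8 was high for Hbb-bs (96.1 CPM) and Alas2 (6.71 CPM). Old replicate 3 was high for C1qb (28.4 CPM), Hmox1 (68.1 CPM) and Csf1r (21.5 CPM), old replicate 2 for Chil3 (1.97 CPM) and young replicate 3 for Mpo (28.7 CPM). Old replicate 4 was high for Col5a1 (1.68 CPM). Old replicate 5 was high for Cdkn2c (21.2 CPM) and low for Plek (181 CPM), and old replicate 1 was high for Hoxb9 (11.9 CPM). Young replicate 1 was high for Ctcf (124 CPM) and young replicate 3 low for Smad6 (14.7 CPM).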

How the results depend on the processing

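Under DESeq2 the counts were 1040 genes higher and 646 lower, with its size factors 989 and 617, and without the filter 1042 and 709. With 1 library left out they ran from 937 to 1022 higher and from 554 to 664 lower, and each stayed within 1.5 times of the reported count. A threshold of 2-fold gave 550 and 323, and none beyond the adjusted p gave 2569 and 1865. Without the 3 libraries with neutrophil markers 850 and 432 were called, 772 and 393 of them shared with the reported calls, without the 3 libraries with the most or fewest genes detected 1003 and 559, and with genes detected as a covariate 1065 and 595. The ATAC-seq medians at starts kept their sign when each of the 8 libraries was left out. Replicate numbers are shared between ages for replicates 1 to 4 but are not stated to mark pairs. The deviations of same-numbered libraries correlated at -0.23 to 0.04, and the fit with the replicate block called 901 and 520. In that fit old replicates 5 to 8 share no number with a young library, so the age contrast rests on replicates 1 to 4. Of 116 counts of list members, 39 moved by over 1.5 times in at least 1 setting other than the fold change thresholds (51 moved with 2-fold and 79 with none), and 38 of those were counts of 5 or fewer, the exception being cytokine genes called higher (9, and 5 with the replicate block).

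Of 96 named genes that were called, 11 lost the adjusted p in at least 1 setting (Alas2, Bmp2, Bmp7, Chil3, Hba-a2, Hbb-bs, Igf2, Il5ra, Mpo, Mt3 and Socs3), 6 of them with the replicate block (Bmp2, Chil3, Hbb-bs, Igf2, Mpo and Socs3). Of the called genes, Chil3 and Mpo reversed their log2 fold change without the 3 libraries with neutrophil markers (0.60 and 0.099, adjusted p = 0.817 and 0.948 from edgeR), and Mpo ran from -3.64 to 0.26 with 1 library left out. Genes that were not called changed the sign of their log2 fold change: Cdh5 stood at 0.15 with the replicate block, 0.092 with the covariate and 0.47 without the libraries of extreme detection, Pf4 at 0.0043 with the replicate block and 0.071 without the libraries of extreme detection, and Tbp at 0.037 with the replicate block, 0.012 without the filter and 0.027 without the libraries with neutrophil markers. Il7r stood at 0.056 with the covariate and Mecom at 0.031 without the libraries with neutrophil markers. With 1 library left out, C1qb ran from -0.32 to 0.57, Cdh5 from -0.39 to 0.48, Ctcf from -0.045 to 0.0048, Hmox1 from -0.12 to 0.45, Il7r from -0.38 to 0.094, Pf4 from -0.22 to 0.12 and Tbp from -0.034 to 0.029. Hlf, which was not called, passed the adjusted p with the replicate block (0.0492), with the covariate (0.0421) and without the libraries of extreme detection (0.0395). Of 754 medians of gene lists recomputed with 1 library left out or with other size factors, 22 moved by more than the spread between old libraries, all with a library left out. The cause was not tested. Depth limits genes at low levels: Il7r, for example, lay between 0.124 and 0.543 CPM in the 12 libraries.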

Other observations

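A group of predicted genes, noticed after the values were seen, had a wide range in both ages. Gm10800 ranged from 965.5 to 3629 CPM in YHSCs and from 325.6 to 3248 CPM in OHSCs, Gm26870 from 71.4 to 282.5 CPM and from 24.7 to 242 CPM, and Gm21738 from 88.9 to 330.4 CPM and from 31.6 to 304 CPM. Among the old libraries each was highest in old replicate 4, which had the most genes with a read (42539), and none of the 3 was called between ages. Old replicate 6, with the fewest genes with a read (32867), had the lowest level of each, and the part of detection in this was not tested. Of the genes that were not called, 2 more that ranged widely among old mice were chosen after their values were seen. Khdrbs3, which encodes an RNA binding protein, ranged from 6.63 to 37.2 CPM in OHSCs and from 16.1 to 30.3 CPM in YHSCs. Dlk1, an imprinted Notch-like ligand, ranged from 11.7 to 48.5 CPM in OHSCs and from 12.2 to 17.8 CPM in YHSCs.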
